A study of Homo sapiens with 6 samples.

Results

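The tripartite motif (TRIM) genes of NCI-N87 cells, a human gastric carcinoma cell line, were described here in cells with and without knockdown of SCAMP1, which encodes a secretory carrier membrane protein. The members were the protein-coding genes with a symbol of TRIM and a number, together with PML (TRIM19), which gave 74 of the 58735 genes in the expression table. The study compared stable cell populations that carried an empty lentiviral vector (shCtrl, named shNC in the sample labels) with populations that carried an shRNA against SCAMP1 (shS1#1, named shScamp1 in the labels). Both were infected for 24 h, selected with 2 μg/ml puromycin and harvested at about 80% confluence, with 3 RNA-seq libraries in each group that the labels call biological replicates. The sources do not state whether the replicates came from separate infections, so the p-values below measure only the spread between these libraries. The knockdown arm rests on 1 shRNA, and cells with a further shRNA were not analysed here. As the control vector was empty, loss of SCAMP1 and the presence of an shRNA cannot be told apart in any difference below.

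TRIM proteins carry, from the N terminus, a RING finger, 1 or 2 B-boxes and a coiled coil. The RING finger recruits an E2 ubiquitin-conjugating enzyme, so that most TRIM proteins act as E3 ubiquitin ligases, and the part behind the coiled coil, often a PRY-SPRY domain, selects the target. A part of the family is transcribed in response to interferon, through STAT and IRF proteins that bind the interferon-stimulated response element (ISRE), and acts in antiviral defence. Other members are corepressors, growth and differentiation regulators or muscle proteins, and the division is not sharp. From general knowledge of the family, 11 members were listed as interferon-inducible (PML, TRIM5, TRIM14, TRIM21, TRIM22, TRIM25, TRIM26, TRIM34, TRIM38, TRIM56 and TRIM69), and the other 63 formed the comparison list.

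Expression was deposited as FPKM, a level per gene length that is also scaled between libraries, and the reads behind these values numbered 14311769 to 15988700 per library. SCAMP1, the targeted gene, had 12.6, 12.1 and 11.5 FPKM with the empty vector and 1.70, 1.37 and 1.99 FPKM with the shRNA, which is the direction the labels give. The 6 epithelial markers examined all stood at 54.5 FPKM or more. Of these, 4 were higher in shS1#1 cells (log2 fold changes of 1.19 for KRT18, 0.97 for KRT8, 0.75 for KRT19 and 0.45 for CDH1). That is 66.7%, beside 8.82% of all genes tested (test below). Of 10 markers of other cell types, COL1A2, DCN and LUM were at 0 in every library, and the 10 together summed to 1.21 to 1.37 FPKM in shCtrl and 1.46 to 1.75 FPKM in shS1#1 libraries. The part of either marker list in the results was not tested. Mitochondrial genes took 9.21% of the reads in shS1#1 replicate 2 and 6.09% to 6.78% in the other libraries. As the cells were measured in bulk, a change in the number of cells that express a gene and a change in RNA per cell cannot be told apart.

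Of the 74 TRIM genes, 18 were listed at 0 in every library and 13 lay above 0 but below the filter of a mean of 0.5 FPKM, which left 43 that were tested. Of these 43, 7 were higher and 2 were lower in shS1#1 than in shCtrl cells, and 34 did not pass the test (limma on log2(FPKM + 0.1), Benjamini-Hochberg adjusted p under 0.05 over 15556 genes). That is 20.9% of the TRIM genes tested, beside 14.0% of all genes tested and 16.7% of the protein-coding genes tested. By direction, the 7 higher genes are 16.3% beside 8.82% of all genes, and the 2 lower ones stand beside 5.17% of all genes. A log2 fold change above 1, the size the study required, was reached among the 43 by TRIM16 alone, beside 3.16% of all genes. The 3 shCtrl and 3 shS1#1 values did not overlap for 21 of the 43 genes (48.8%), beside 41.4% of all genes.

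Of the 9 interferon-inducible members tested, TRIM38, PML, TRIM69 and TRIM21 were higher in shS1#1 cells and none was lower, and 8 of the 9 log2 fold changes were positive (7 with scaling to total reads). Of the 34 other TRIM genes tested, TRIM16, TRIM23 and TRIM8 were higher, TRIM15 and TRIM65 were lower, and the signs were divided into 17 positive and 17 negative (13 and 21 with scaling to total reads). The share called higher was 44.4% of the interferon-inducible members and 8.82% of the other TRIM genes, beside 8.82% of all genes tested. Of the 15556 genes tested, 7405 had a positive log2 fold change. The median log2 fold change was 0.37 for the interferon-inducible list, 0.01 for the other TRIM genes and -0.02 for all genes tested. With scaling to total reads in place of the deposited scaling, the calls over all genes shifted from 1372 higher and 805 lower to 1138 higher and 1268 lower, and the list medians became 0.29 and -0.06. Within each library, the median of the interferon-inducible list relative to the shCtrl mean was -0.06, 0.01 and 0.07 in shCtrl and 0.36, 0.40 and 0.30 in shS1#1 libraries, whereas for the other TRIM genes it was 0.03, 0.03 and 0.07 in shS1#1 libraries. The difference between the lists was not tested.

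**Figure D1:**
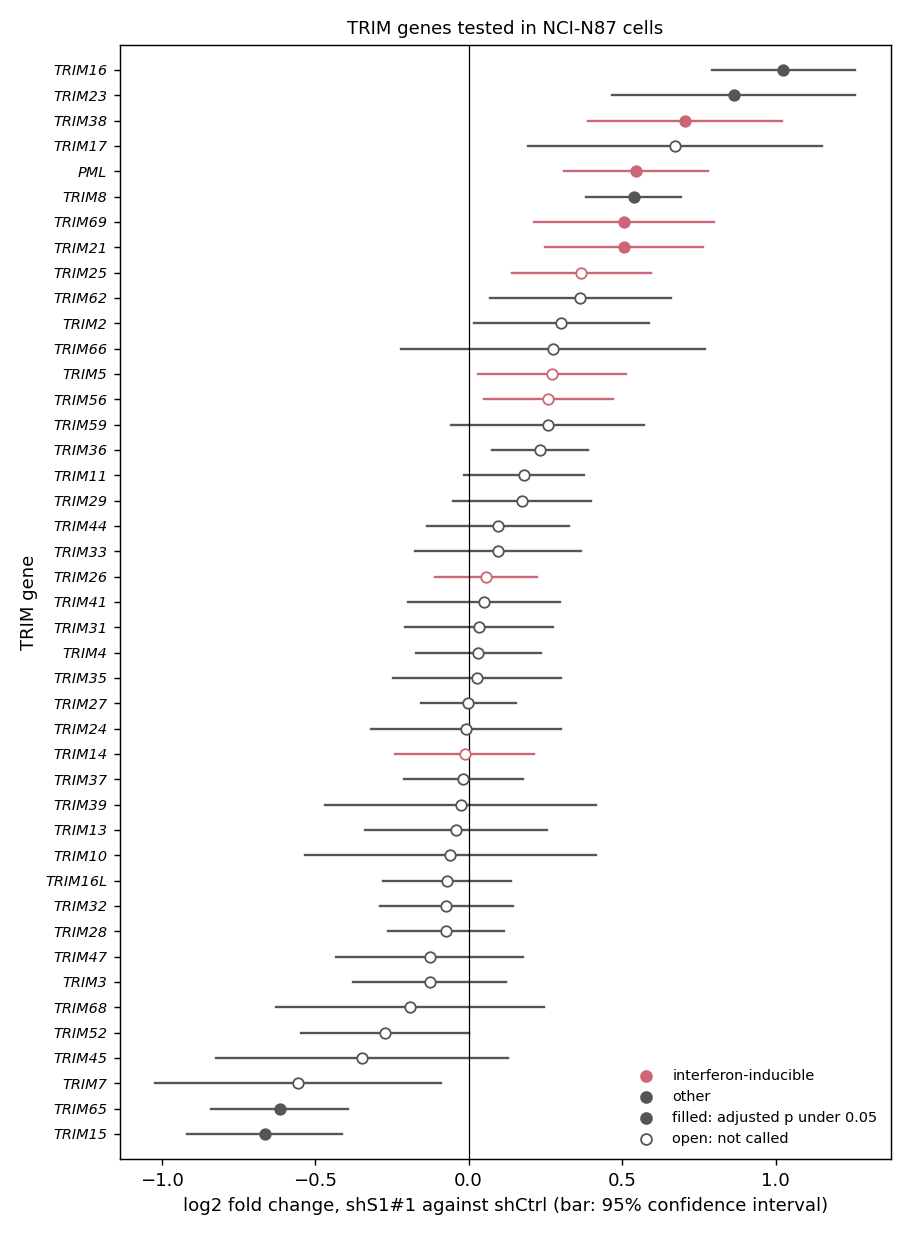
Log2 fold change of shS1#1 against shCtrl for the 43 TRIM genes tested, with 95% confidence intervals from limma, in red for interferon-inducible members and in grey for the others. Filled points mark adjusted p under 0.05. They run from TRIM16 at 1.03 to TRIM15 at -0.66, and 8 of the 9 red points lie to the right of 0, or 7 with scaling to total reads.

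The promoters of the interferon-inducible members are shown first. The list was drawn from general knowledge of these genes, which may include their promoter elements. The shares of the pattern are therefore no independent check of the list. RefSeq windows of 300 bases, from 250 before to 50 after the annotated start on GRCh38.p14, were found by symbol for 56 of the 74 members, and PML and TRIM22 were among those with none. The ISRE-type pattern GAAANNGAAA, read on both strands and with overlaps allowed, was in 6 of 9 interferon-inducible members (66.7%), in 4 of 47 other TRIM genes (8.51%) and in 4.38% of all 27305 symbols. The GAS-type pattern TTCNNNGAA, the palindrome bound by STAT dimers, was in 0 of 9 and in 12 of 47, beside 9.38% of all symbols. The 12 include the related copies TRIM49, TRIM49B, TRIM49C, TRIM64 and TRIM64B, all listed at 0, so they are not 12 independent matches. The 7 stretches below, each of 30 bases in the direction of transcription with the pattern in capitals, are those of the interferon-inducible members that hold it and of TRIM16, the tested gene with the largest rise. The other matches were in TRIM2, TRIM44 and TRIM64C.
TRIM21: ctgagcgGAAACTGAAAGTGAAAtagggag
TRIM26: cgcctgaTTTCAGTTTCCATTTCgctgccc
TRIM69: ctaatgagggTTTCTCTTTCtcttaagcaa
TRIM5: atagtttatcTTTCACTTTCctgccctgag
TRIM34: gccccaaaaaTTTCACTTTCatttctcagg
TRIM14: acggccgaggTTTCGGTTTCccttgggagc
TRIM16: acagaggtaaGAAATAGAAAtaaagggtcc

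These lie at chr11:4393663-4393692 for TRIM21, chr6:30213578-30213607 for TRIM26, chr15:44736456-44736485 for TRIM69, chr11:5685082-5685111 for TRIM5, chr11:5624901-5624930 for TRIM34, chr9:98119229-98119258 for TRIM14 and chr17:15683012-15683041 for TRIM16. TRIM34 and TRIM69 are on the forward strand and the other 5 on the reverse strand. TRIM21 and TRIM26 each hold 2 matches that overlap by 4 bases, so that 3 GAAA units, or their complement, follow each other. The TRIM21 matches begin 17 and 23 bases after the RefSeq start, whereas the others begin before it, by 26 bases in TRIM14, 27 in TRIM5, 62 in TRIM69, 80 in TRIM16, 90 in TRIM34, while those of TRIM26 begin at -194 and -188. Beside the expression values, TRIM21, TRIM69 and TRIM16 were higher in shS1#1 cells, TRIM5, TRIM14 and TRIM26 did not pass the test and TRIM34 was listed at 0. Of the other genes with a match, TRIM2 and TRIM44 did not pass (log2 fold changes 0.30 and 0.10) and TRIM64C was listed at 0. TRIM38 was higher with no match in its window, and TRIM25 and TRIM56 had no match either. A match is a run of letters and no evidence of binding.

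Among the 9 interferon-inducible members tested, TRIM38 (ENSG00000112343, GRCh38 chr6:25962802-25991226), a regulator of Toll-like receptor and cytokine signalling, had the largest log2 fold change. It was measured at 2.30, 2.32 and 2.01 FPKM in shCtrl and 3.21, 4.31 and 3.55 FPKM in shS1#1 libraries. All 3 shS1#1 values lay above the shCtrl values, with a log2 fold change of 0.70 (SE 0.13, limma adjusted p = 0.0186).

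PML (ENSG00000140464, chr15:73994673-74047812) forms the scaffold of the nuclear bodies that bear its name. Its values were 4.99, 5.63 and 6.17 FPKM in shCtrl and 7.93, 8.69 and 7.97 FPKM in shS1#1 libraries. The groups did not overlap, and the log2 fold change was 0.55 (SE 0.10, limma adjusted p = 0.0159).

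TRIM21 (ENSG00000132109, chr11:4384897-4393696), the cytosolic antibody receptor, was measured at 5.59, 5.88 and 6.07 FPKM in shCtrl and 9.65, 7.54 and 7.97 FPKM in shS1#1 libraries. It rose by 0.51 on the log2 scale (SE 0.11, limma adjusted p = 0.0286), and the SD was 1.12 FPKM in shS1#1 and 0.243 FPKM in shCtrl libraries. TRIM69 (ENSG00000185880, chr15:44728988-44767829), an antiviral protein that binds microtubules, was low, at 1.29, 1.33 and 1.33 FPKM in shCtrl and 2.17, 1.82 and 1.76 FPKM in shS1#1 libraries, from 189 to 294 reads. Its groups were also apart, with a log2 fold change of 0.51 (SE 0.12, limma adjusted p = 0.0421).

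TRIM25 (ENSG00000121060, chr17:56836387-56914080), the ligase that ubiquitinates RIG-I, was the most abundant member of the list. It stood at 18.6, 19.4 and 20.4 FPKM in shCtrl and 23.2, 28.4 and 24.0 FPKM in shS1#1 libraries. The groups did not overlap, yet the log2 fold change of 0.37 (95% confidence interval 0.14 to 0.60) narrowly missed the threshold (limma adjusted p = 0.0503).

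TRIM5, the restriction factor of retroviral capsids, and TRIM56, an RNA-binding antiviral ligase, likewise had groups that did not overlap without passing the test. TRIM5 was at 2.05, 1.94 and 2.26 FPKM against 2.69, 2.45 and 2.46 FPKM (log2 fold change 0.27, limma adjusted p = 0.124). TRIM56 was at 9.36, 9.71 and 10.3 FPKM against 10.8, 12.9 and 11.6 FPKM (log2 fold change 0.26, limma adjusted p = 0.10).

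TRIM26, which lies in the major histocompatibility complex, and TRIM14, an adaptor without a RING finger that works at MAVS, had overlapping groups. TRIM26 was at 17.1, 16.2 and 18.1 FPKM in shCtrl and 17.4, 18.5 and 17.6 FPKM in shS1#1 libraries, with a log2 fold change of 0.06 (95% confidence interval -0.11 to 0.23). TRIM14 was at 12.0, 13.0 and 12.6 FPKM and 11.5, 14.1 and 11.9 FPKM, with a log2 fold change of -0.01 (95% confidence interval -0.24 to 0.21). Their signs changed under other settings, for TRIM26 to -0.02 with scaling to total reads. These intervals leave out the change seen for TRIM38, but the difference between members was not tested.

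**Figure D2:**
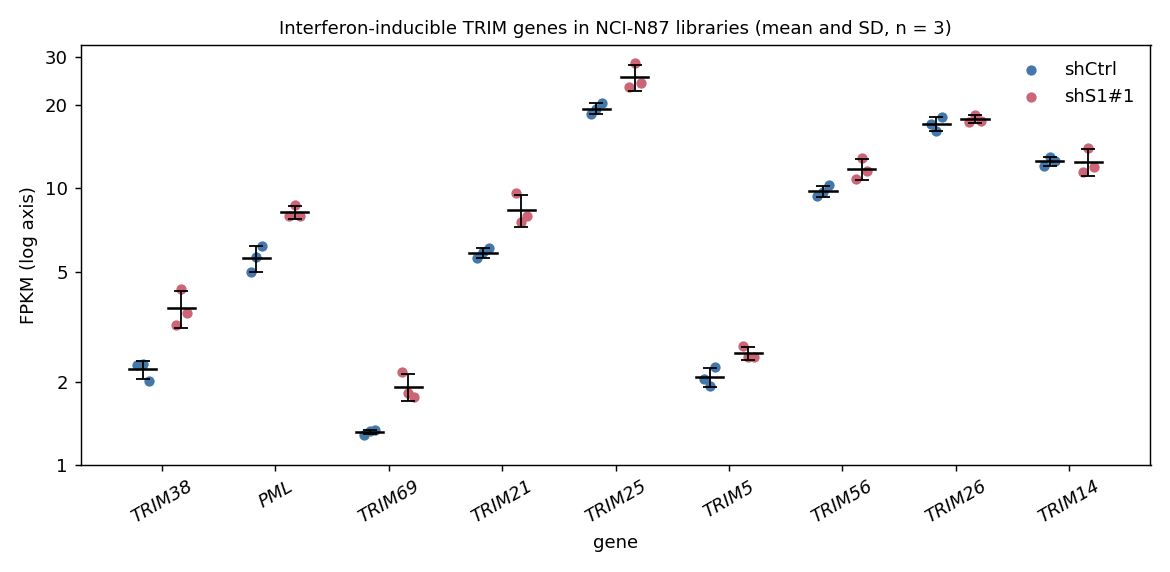
FPKM on a log axis of the 9 interferon-inducible TRIM genes tested, with a point for each library in blue for shCtrl and red for shS1#1, and the mean and SD of 3 libraries in black. The groups stand apart for the 7 genes from TRIM38 to TRIM56 and overlap for TRIM26 and TRIM14. Of all genes tested, 41.4% had groups that did not overlap.

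The calls in this list depended on single libraries more than the values did. The number called higher was 4 with all 6 libraries, 0 without shCtrl replicate 1, shCtrl replicate 2 or shS1#1 replicate 3, 1 without shCtrl replicate 3, 3 without shS1#1 replicate 1 and 5 without shS1#1 replicate 2. The list median stayed between 0.30 and 0.40 in these 6 fits, and the share of all genes called ranged from 5.25% to 28.3%, the last without shS1#1 replicate 2, the library with the high mitochondrial share.

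TRIM22 and TRIM34, the remaining interferon-inducible members, were too low for the test. TRIM22 (ENSG00000132274, chr11:5689689-5737089), an antiviral ligase encoded beside TRIM5, had 6, 2 and 0 reads in shCtrl and 33, 21 and 26 reads in shS1#1 libraries. Each shS1#1 library held more TRIM22 reads than the 3 shCtrl libraries together. The sums of 8 and 80 reads give a ratio of 11.2 after depth (95% interval 5.41 to 26.8, counting error only). Fitted without the filter over 33572 genes, of which 4.81% passed, TRIM22 had an adjusted p of 0.0379 (limma). TRIM34 was listed at 0 throughout, and 83.0% of its exonic bases are shared with the readthrough gene TRIM6-TRIM34, which was at 0 too, so that its level could not be read here. TRIM6, its neighbour and a ligase of the same chromosome 11 cluster that is outside the list, had 9, 14 and 7 reads in shCtrl and 25, 23 and 20 reads in shS1#1 libraries, a ratio of 2.53 (95% interval 1.63 to 4.03, counting error only). TRIM6 did not pass without the filter (limma adjusted p = 0.156).

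Of the 43 TRIM genes tested, TRIM16 (ENSG00000221926, chr17:15627960-15684311), which is outside the interferon-inducible list, had the largest log2 fold change. TRIM16 lacks a RING finger and is known for roles in oxidative stress and in the removal of damaged lysosomes. It was measured at 13.4, 12.3 and 13.2 FPKM in shCtrl and 28.9, 23.3 and 27.5 FPKM in shS1#1 libraries, which is 12.9 ± 0.557 against 26.6 ± 2.91 FPKM (SD, n = 3). The log2 fold change was 1.03 (SE 0.10, 95% confidence interval 0.79 to 1.26, limma adjusted p = 0.00178), and it passed in all 15 alternative fits. Of its exonic bases, 23.5% are shared with AC005324.3 on the same strand, a gene with 22 to 35 reads in shCtrl and 83 to 101 reads in shS1#1 libraries, and reads of the shared part cannot be told apart.

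TRIM16L, a shorter copy of TRIM16 on the same chromosome, served as a comparison within each library, although near-identical stretches make the division of reads between the copies uncertain. It was at 5.97, 5.68 and 5.44 FPKM in shCtrl and 5.77, 4.94 and 5.57 FPKM in shS1#1 libraries, with overlapping groups and a log2 fold change of -0.07 (95% confidence interval -0.28 to 0.14). The ratio of TRIM16 to TRIM16L was 2.24, 2.17 and 2.42 in shCtrl and 5.01, 4.71 and 4.93 in shS1#1 libraries. The ratio was thus higher in every shS1#1 library, with an exact permutation p of 0.1 (two-sided), the smallest that 3 against 3 libraries allow. As the TRIM16 groups were already apart and TRIM16L changed little, this p adds no independent support.

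TRIM23 (ENSG00000113595, chr5:65589680-65625975), which joins a RING finger to an ARF-type GTPase domain, and TRIM8 (ENSG00000171206, chr10:102642310-102660680), a regulator of cytokine signalling, also rose. TRIM23 was at 1.60, 2.06 and 1.43 FPKM in shCtrl and 2.88, 2.93 and 3.64 FPKM in shS1#1 libraries (log2 fold change 0.86, SE 0.17, limma adjusted p = 0.0201). TRIM8 was at 10.3, 10.1 and 10.6 FPKM against 14.3, 15.4 and 15.4 FPKM (log2 fold change 0.54, SE 0.06, limma adjusted p = 0.00412). In both the groups were apart, and TRIM8 had the smallest SE of the TRIM genes that rose. TRIM8 passed in all 15 alternative fits, whereas TRIM23 had an adjusted p of 0.0851 without shCtrl replicate 1, 0.0765 without shCtrl replicate 3 and 0.0716 without shS1#1 replicate 3 (limma).

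TRIM15 and TRIM65, both PRY-SPRY members, were the TRIM genes that fell. TRIM15 (ENSG00000204610, chr6:30163206-30172696), a protein of focal adhesions, was at 22.9, 22.1 and 21.3 FPKM in shCtrl and 15.4, 12.0 and 14.5 FPKM in shS1#1 libraries (log2 fold change -0.66, SE 0.10, limma adjusted p = 0.0112). TRIM65 (ENSG00000141569, chr17:75880335-75897003), a ligase for the RNA sensor MDA5, was at 12.0, 13.1 and 13.6 FPKM against 9.21, 7.70 and 8.24 FPKM (log2 fold change -0.62, SE 0.09, limma adjusted p = 0.00925). Every shS1#1 value lay below every shCtrl value for both. TRIM15 lost its call without shCtrl replicate 1 (adjusted p = 0.0588) or shCtrl replicate 2 (adjusted p = 0.0575), and TRIM65 without shCtrl replicate 2 (adjusted p = 0.0542) or shCtrl replicate 3 (adjusted p = 0.0510), by limma.

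**Figure D3:**
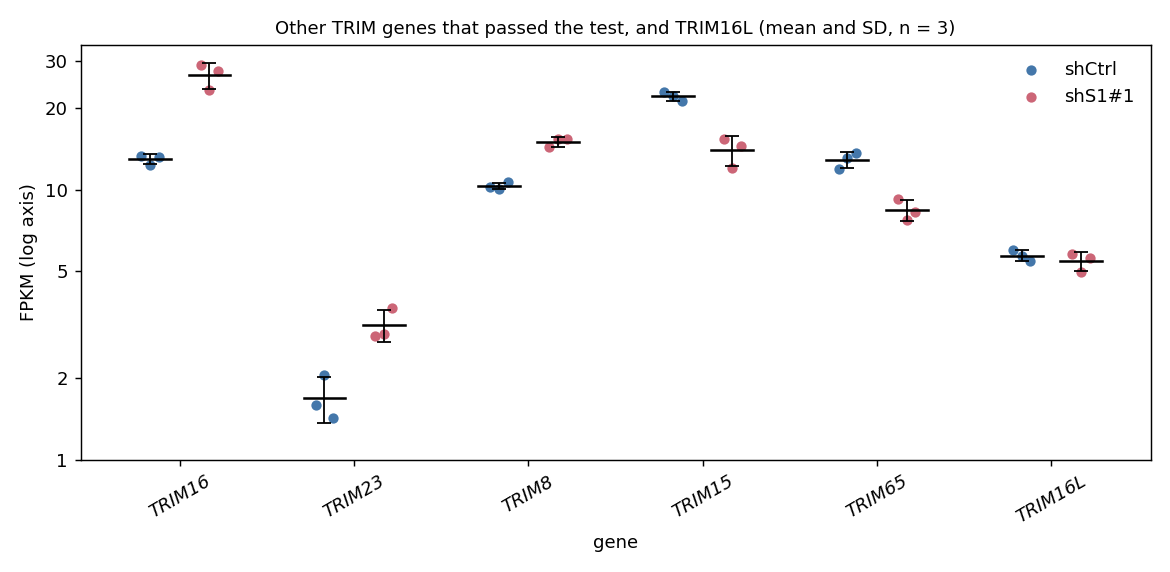
FPKM on a log axis of the 5 other TRIM genes that passed the test and of TRIM16L, with a point for each library in blue for shCtrl and red for shS1#1, and the mean and SD of 3 libraries in black. TRIM16, TRIM23 and TRIM8 are higher and TRIM15 and TRIM65 lower in shS1#1 libraries without overlap, and TRIM16L overlaps.

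The TRIM genes next to these in the genome are given side by side with them. TRIM31, TRIM40, TRIM10, TRIM15, TRIM26 and TRIM39 lie in a row on chromosome 6 between 30102897 and 30343729. Of these, TRIM15 fell, TRIM31, TRIM10, TRIM26 and TRIM39 had log2 fold changes of 0.03, -0.06, 0.06 and -0.03 and did not pass, and TRIM40 was below the filter. TRIM47 lies beside TRIM65 on the same strand of chromosome 17 and had a log2 fold change of -0.13 (95% confidence interval -0.43 to 0.18), with 51.5% of its exonic bases under an antisense gene. On chromosome 1, TRIM17 and TRIM11 lie next to each other, with log2 fold changes of 0.67 (adjusted p = 0.0737) and 0.18 (adjusted p = 0.189) by limma.

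TRIM28, TRIM31 and TRIM29, the most abundant members, did not pass the test. TRIM28, the KAP1 corepressor that KRAB zinc finger proteins recruit, led the family with 117, 122 and 133 FPKM in shCtrl and 114, 116 and 123 FPKM in shS1#1 libraries. TRIM31, a ligase of gut epithelium, followed with 47.8, 45.4 and 48.3 FPKM against 52.8, 42.0 and 50.9 FPKM. TRIM29, a RING-less protein of epithelia, was at 31.7, 32.4 and 34.04 FPKM against 35.0, 41.8 and 34.3 FPKM. In mean FPKM over the 6 libraries, TRIM28, TRIM31 and TRIM29 are in the order 121, 47.9 and 34.9, and their ranges do not meet. TRIM25, TRIM16, TRIM2, TRIM15 and TRIM26 come next, from 22.3 down to 17.5 FPKM, with ranges that overlap their neighbours. For TRIM28 the log2 fold change was -0.07 (95% confidence interval -0.27 to 0.12), for TRIM31 0.03 (-0.21 to 0.28) and for TRIM29 0.17 (-0.05 to 0.40). The groups overlapped for TRIM28 and TRIM31, whereas for TRIM29 the lowest shS1#1 value lay just above the highest shCtrl value. The sign of TRIM28 turned with quantile normalization and that of TRIM31 with scaling to total reads.

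**Figure D4:**
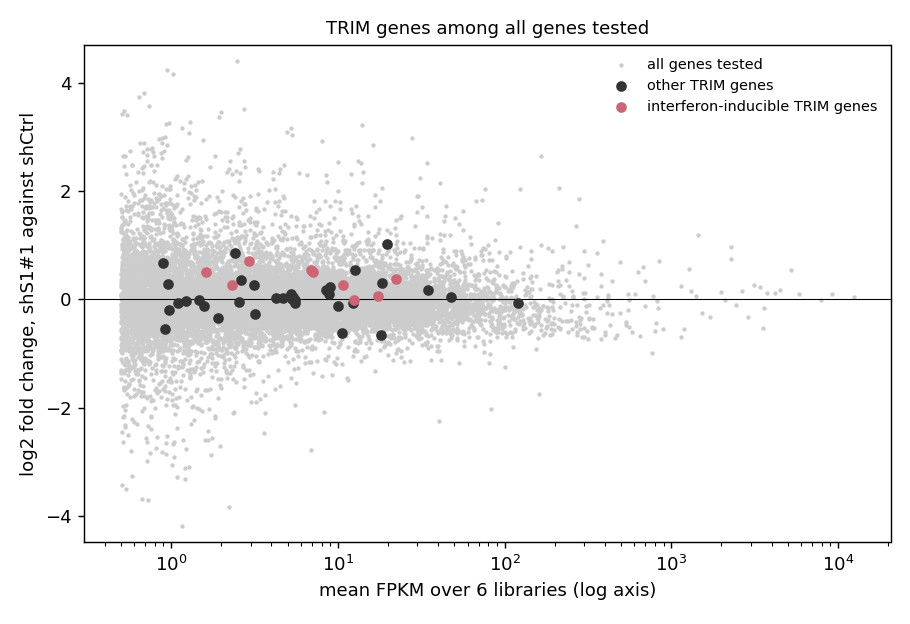
Mean FPKM over 6 libraries on a log axis against the log2 fold change of shS1#1 against shCtrl, for all 15556 genes tested in light grey, interferon-inducible TRIM genes in red and other TRIM genes in black. TRIM28 is the black point farthest right, at 121 FPKM and -0.07, and TRIM16 the highest black point, at 1.03.

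A gene that did not pass is not shown to be unchanged. Of the 34 TRIM genes that did not pass, 17 had a log2 fold change within 0.1 of 0, and for 22 the 95% confidence interval lay within 0.5 of 0 in either direction. Their log2 fold changes ran from -0.56 for TRIM7, a ligase named for its binding of glycogenin, to 0.67 for TRIM17. Groups did not overlap for 12 of the 34, beside 41.4% of all genes tested, passed or not. By domain class, 20 PRY-SPRY members were tested, with TRIM38, TRIM69 and TRIM21 higher and TRIM15 and TRIM65 lower. That is 25% of the 20, beside 14.0% of all genes tested that passed in either direction. Of 5 members that end without a further domain, PML and TRIM8 were higher, while TRIM56, TRIM31 and TRIM52 did not pass. Of 6 RING-less members TRIM16 was higher, and of 3 with another C-terminal domain TRIM23 was. None passed among the 3 genes classed as corepressors with a PHD finger and bromodomain (TRIM24, TRIM28 and TRIM33, log2 fold changes -0.01, -0.07 and 0.10). The same held for the 3 NHL-repeat members (TRIM2, TRIM3 and TRIM32) and the 2 membrane-anchored ligases (TRIM13 and TRIM59). TRIM36, the 1 COS-box member tested, did not pass either. Each gene was counted in 1 class, TRIM66 among the RING-less members. With 14.0% of all genes passing, classes this small cannot be ranked, and differences between them were not tested.

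The members that were not measured are largely those of other tissues and of recently duplicated groups. The 18 listed at 0, each allowing up to 3 reads in a library by counting error, include the muscle ligases TRIM63 and TRIM55 and the copies TRIM43, TRIM43B, TRIM49, TRIM49B, TRIM49C, TRIM64, TRIM64B and TRIM64C, whose reads could be divided between copies or lost. Of the 13 above 0 but below the filter, TRIM6 was highest, at a mean of 0.280 FPKM, and TRIM73 and TRIM74, themselves near-identical, were at 0.125 and 0.235 FPKM.

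The genes that TRIM proteins work with were taken from lists of well known partners. Of 7 nuclear body partners of PML tested, SP110 (log2 fold change 1.05, SE 0.10, limma adjusted p = 0.00172) and SP100 (0.71, SE 0.08, limma adjusted p = 0.00263) were higher. DAXX, ATRX and SP140L did not pass. The 2 that were higher are 28.6% of the 7, beside 8.82% of all genes tested. Of 8 antiviral signalling partners, 4 were higher (50%, beside the same 8.82%) and none lower. These were DDX58, which encodes RIG-I, the target of TRIM25 (1.62, SE 0.10), IFIH1, which encodes MDA5, the target of TRIM65 (0.95, SE 0.12), TBK1 (0.49, SE 0.07) and TMEM173, which encodes STING (0.40, SE 0.08). IFIH1 was higher and TRIM65 lower in the same libraries, which holds for any such pair of calls between 2 groups. A relation between these genes was not tested. MAVS did not pass, at 0.03 (95% confidence interval -0.28 to 0.34).

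Among transcription factors of the interferon response, IRF7 (log2 fold change 1.42, SE 0.09) and STAT2 (1.197, SE 0.07) were higher, with limma adjusted p of 0.000547 and 0.00051. IRF9 at 0.52 and IRF1 at 0.46 did not pass. IRF7 and STAT2 each had a larger log2 fold change than any interferon-inducible TRIM gene tested, the highest of which was TRIM38 at 0.70. This ranking leaves out TRIM22, which lay below the filter and had 1.70 in the fit without it, from few reads. Of 10 E2 enzymes, UBE2L6, the enzyme that conjugates ISG15, was higher (0.54, SE 0.10, limma adjusted p = 0.0202), and the others, among them the UBE2D group and UBE2N, did not pass. That is 10% of the E2 enzymes, near the 8.82% of all genes tested that were higher. None of 6 partners of TRIM28 in repression passed, nor did MID1 and MID2, which belong to the family without bearing a TRIM symbol (log2 fold changes 0.21 and 0.60, limma adjusted p = 0.390 and 0.129).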

How the data were processed

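RNA of NCI-N87 cells was measured in 3 shCtrl and 3 shS1#1 libraries. The authors, through Novogene, deposited FPKM values per gene with gene length, coordinates and biotype, and replicates were not pooled. The submitters' processing notes name HISAT2 2.0.5, featureCounts 1.5.0-p3, DESeq2 1.20.0 and hg38, without the role of each, and the strand setting is not given in the sources used here. FPKM multiplied by gene length gave whole reads for 100% of values above 0 (tolerance 0.01), from 14311769 to 15988700 per library, and the deposited FPKM already carried a median-of-ratios scaling. Counting error therefore limits mainly genes with few reads.

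The 15556 genes that averaged 0.5 FPKM or more were tested on log2(FPKM + 0.1), a scale that understates changes of low genes, with limma 3.58.1 (lmFit, eBayes with trend) in R 4.3.3 and Benjamini-Hochberg adjustment over all of them. The fit was tested on simulated data. Recovered reads were used for ratios of low genes, with exact binomial intervals, and for voom. The 15 alternative fits covered the pseudocount, filter, scaling, trend, voom, replicate block and leaving out each library, and list membership and a fold threshold were also varied. Per-library values were given for tested interferon-inducible members, for other TRIM genes that passed (those past a log2 fold change of 1, then up to 6 in each direction) and for the 5 most abundant members. Of each partner list, up to 4 that passed were named, and some genes of these lists are not reported here. Further genes in the text were picked with their values known. The members and lists were chosen with earlier results of these data known.

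Gene coordinates are those deposited (GENCODE 29, GRCh38), and shared exonic bases were computed from GENCODE 29. Promoter windows are from RefSeq, GRCh38.p14, matched by symbol.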

Additional observations from a re-analysis of the deposited data

How the results depend on the processing

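Leaving out 1 library at a time, the number of TRIM genes called higher ranged from 2 to 9 and called lower from 0 to 2, of interferon-inducible members called higher from 0 to 5, and of other TRIM genes called lower from 0 to 2. The list medians ranged from 0.296 to 0.402 (interferon-inducible) and from -0.0125 to 0.0374 (other). TRIM14 ranged from -0.101 to 0.0453 and TRIM31 from -0.0288 to 0.136 on the log2 scale, so that their signs turned. With the replicate number as a block (replicate block), 2 TRIM genes were called higher (0 of them interferon-inducible) and 1 other TRIM gene lower, while 6.16% of all genes passed. Same-numbered libraries correlated at -0.035, 0.032 and 0.067 in their deviations from the group means. Libraries of unlike number correlated at -0.084 to 0.054. With 3 libraries in each group these values cannot exclude a shared batch, so whether the numbers pair the libraries was not settled. Scaling to total reads gave 2 interferon-inducible calls, medians of 0.293 and -0.0608, TRIM26 at -0.017 and TRIM31 at -0.0404. Quantile normalization put TRIM28 at 0.0037. Without a filter the medians were 0.437 and -0.0212, with a minimum mean of 2 FPKM the other median was 0.0345, with the narrower list of 8 genes they were 0.437 and 0.0308, and with the wider list of 15 genes the other median was -0.00855. With the fold threshold added, 1 TRIM gene was higher and 0 were lower. The cause of these shifts was not tested. Of 254 values of the 17 named genes over the alternatives, 208 kept their direction and side of the threshold, 33 fell short of it, 5 newly passed and 8 changed sign.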

Other observations

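Several TRIM genes share exonic bases with other genes, and with no strand setting known, reads of the shared parts cannot be told apart. TRIM47 shares 51.5% of its exonic bases with an antisense gene that had 10 to 23 reads. TRIM39 shares 41.7%, part of it with HCG18 on the opposite strand (171 to 232 reads) and part with the readthrough gene TRIM39-RPP21, which was listed at 0. TRIM59 shares 34.3%, part of it with SMC4 on the opposite strand (3928 to 4729 reads), and TRIM52 shares 28.5% with an antisense gene that had 54 to 164 reads. None of these genes passed the test in either direction.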
